A study of Mus musculus with 8 samples.

Results

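Apoptosis regulators and caspases were followed in livers and liver tumours of p53-null mice, through probe sets that lie on both arrays used and are annotated to a single gene of a list of 44. For 42 of the 44 genes such a probe set was found, 86 probe sets in all, among 18193 genes on the tumour array. Ripk1 and Bnip3l had none and are not analysed here. The tumour groups were hepatocellular carcinomas (HCC) of p53-/- mice with the HBs transgene, aged 12 to 15 months, 3 from animals that carried the RNA subunit of telomerase (mTERC+) and 3 from animals that lacked it (mTERC-), with 1 tumour per array. The liver groups were p53-/- mice infected intravenously with the adenovirus Ad TRF2DBDM or with Ad GFP and sampled 48 hours later, with 1 array per virus that carried RNA pooled from 3 mice. TRF2DBDM is TRF2, a protein that caps telomeres, in truncated form, and GFP, a fluorescent protein, served as the control cargo. All mice had a C57BL/6J background, and the age of the infected mice is not given in the sources used here. The labels do not say which promoter drives a transgene or viral insert. All of the tissue lacked p53, the controls included, so the groups differ in telomerase RNA or viral cargo and not in p53.

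Cells die by apoptosis along a mitochondrial and a death receptor route. In the first, BH3-only proteins sense damage and free the effectors BAX and BAK from restraint by BCL2, BCL-XL, BCL-W and MCL1, while the effector BOK acts largely apart from that restraint, after which cytochrome c leaves the mitochondrion and joins APAF1 to activate caspase 9. In the second, ligands such as Fas ligand and TNF bind receptors that recruit FADD or TRADD and caspase 8, with cFLIP and the inhibitor of apoptosis proteins (IAPs) as brakes. Hepatocytes use both routes, since the small caspase 8 signal at their death receptors is amplified through BID. Telomere dysfunction is known to call on p53, which drives several of the genes described here, so p53-null tissue shows them without that input.

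The hepatocyte markers stood near the top of every array, at a median percentile of 99.9 in all 6 tumours and both livers, which the labels call hepatocytes throughout although markers of other cells were read too. In mTERC- tumours neutrophil markers were higher on average (5 of 5, summed signal 8995 to 20869 against 287 to 2864). Lower on average there were macrophage (10 of 10), endothelial (6 of 6) and hepatocyte markers (7 of 8, summed signal 148820 to 220880 against 197120 to 234220). Their part in the members' values was not tested. Array quality was uneven, since the Gapdh control probe sets of mTERC- tumour 2 read 13.8 times more at the 3' than at the 5' end, where the other tumours gave 0.983 to 1.18 and the livers 0.841 and 0.793. The 18S control was also low in mTERC- tumours 2 and 3, at 318.5 and 349, where the other tumours had 11010 to 27810. The median signal over the whole array was 75.1 for mTERC- tumour 2 and 54.5 to 59.4 for the other tumours. This tumour gave the lowest value of 20 and the highest value of 21 of the 69 member probe sets tested, or 29.0% and 30.4%, and of 21.3% and 28.4% of all probe sets tested. Nothing in the labels says how the tumours of a group were related to each other beyond being individual tumours. The limma p-values and standard errors (SE) set each group difference against the spread among these tumours, with variance information shared across the probe sets tested. For a given probe set they therefore do not measure its own spread alone.

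The first comparison asked whether tumours that arose without telomerase RNA differed in the machinery of cell death from those that arose with it. No member passed in either direction: 0 of 69 probe sets, from 38 genes, had an adjusted p below 0.05 in limma, where 0.00444% of all 22519 probe sets tested did. An unadjusted p below 0.05 was found for 2 member probe sets, or 2.90%, against 4.84% of all. The groups did not overlap for 5 member probe sets, or 7.25%, against 10.1% of all. A lower mean in mTERC- tumours was found for 40 of the 69, or 58.0%, against 47.8% of all, with a median log2 difference of -0.04 beside 0.03 over all probe sets. Differences are log2 of the signal plus 32, mTERC- minus mTERC+, and ranged from -1.19 to 0.94 over the members. The smallest adjusted p of any member in limma was 0.942. The values that follow describe these tumours, with no member called. For the 14 genes with the smallest p, where a difference moved by over 1.5 times, its value is given without the tumour that moved it, or within the 4 tumours with a high 18S control, where mTERC- tumour 1 alone stands against the mTERC+ group (the high-18S value).

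**Figure D1:**
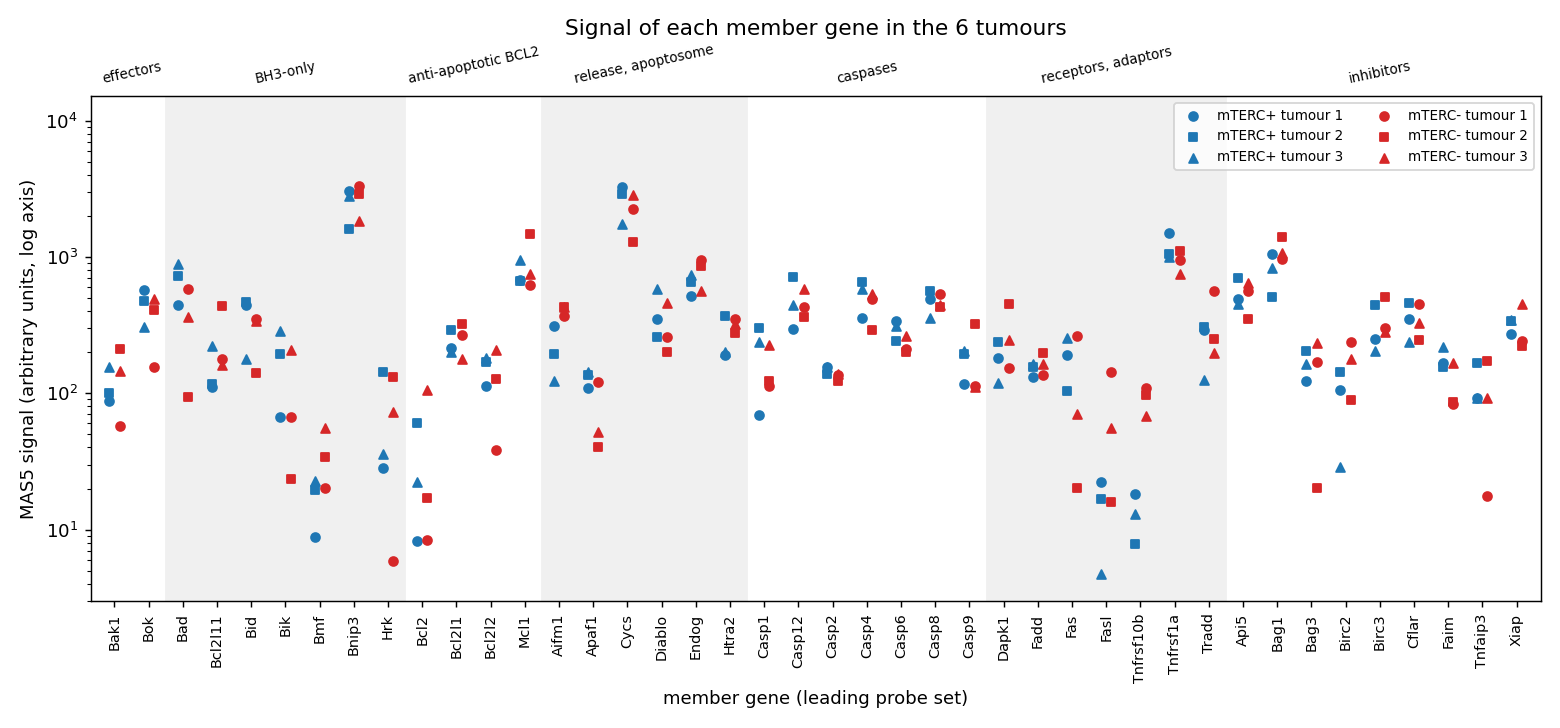
Signal of the leading probe set, the probe set with the highest mean in the tumours, of each of the 42 member genes (x axis, grouped by role) in every tumour on a log axis of MAS5 signal in arbitrary units. Blue symbols are the 3 mTERC+ and red symbols the 3 mTERC- tumours; among leading probe sets tested, the groups are apart only for Aifm1 and Casp2, and Tnfrsf10b is apart below the level at which probe sets were tested.

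Aifm1 (Entrez Gene 26926), which encodes the apoptosis-inducing factor, a mitochondrial flavoprotein needed for respiration and able to act on chromatin once released, had the smallest p of the members. Its signal was 371, 429 and 427 in mTERC- tumours 1, 2 and 3 and 314, 193 and 124 in mTERC+ tumours 1, 2 and 3. All 3 mTERC- tumours stood above all 3 mTERC+ tumours, and they were closer to each other, with a mean ± SD of 409 ± 32.5 against 210.0 ± 96.1 (n = 3 per group). On the log2 scale the groups differed by 0.94 (SE 0.39), with an unadjusted p of 0.0283 and an adjusted p of 0.942 in limma. With each tumour left out it ran from 0.66 to 1.23. Apaf1, the scaffold of the apoptosome, lay the other way, at 121, 40.3 and 52.1 in the mTERC- and 109.6, 137 and 143 in the mTERC+ tumours. Here mTERC- tumours 2 and 3 were low and mTERC- tumour 1 was within the mTERC+ range, and the log2 difference of -0.72 had an adjusted p of 0.942 in limma. The low tumours were the 2 with a low 18S control, and the high-18S value was -0.07. Cycs, the gene of cytochrome c, had 2256, 1296 and 2859 in the mTERC- and 3261, 2909.8 and 1730.0 in the mTERC+ tumours. Its lowest value was in mTERC- tumour 2, and without that tumour its log2 difference of -0.32 was 0.00. Over the 10 tested probe sets of mitochondrial release and the apoptosome, 5 had a higher and 5 a lower mean in mTERC- tumours.

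Among the BH3-only genes, Bad (Entrez Gene 12015), whose product is held inactive by growth factor signalling and otherwise binds BCL2 and BCL-XL, had the second smallest p of the members. Its signal was 586, 93.8 and 365 in mTERC- tumours 1, 2 and 3 and 445, 725 and 892 in mTERC+ tumours 1, 2 and 3. The lowest value by far was that of mTERC- tumour 2, and mTERC- tumour 1 lay within the mTERC+ group. The log2 difference was -1.15 (SE 0.49), with an unadjusted p of 0.0321 and an adjusted p of 0.942 in limma, and -0.49 without mTERC- tumour 2, the array with the high Gapdh ratio. Its high-18S value was -0.17. A further Bad probe set had a difference of -0.64, and -0.31 without that tumour. Bik, a BH3-only protein of the endoplasmic reticulum, had 67.5, 23.3 and 208 in the mTERC- and 66.9, 192 and 286 in the mTERC+ tumours. The value of mTERC- tumour 2 was again the lowest, and the log2 difference of -0.81 was -0.31 without it. Leaving out mTERC+ tumour 3 gave -0.44, mTERC+ tumour 1 -1.28 and mTERC- tumour 3 -1.37. Other Bik probe sets had -0.17 and 0.11, so its probe sets did not share a direction.

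Bcl2l11, the gene of BIM, a broad activator of BAX and BAK, had higher means in mTERC- tumours for both probe sets tested. The leading probe set had 179, 439 and 162 in the mTERC- and 111, 117 and 220.2 in the mTERC+ tumours. The highest value was that of mTERC- tumour 2, and the difference of 0.61 was 0.21 without it, with a high-18S value of 0.26. The other tested probe set had 131, 201 and 313 in the mTERC- and 76.2, 141 and 91.2 in the mTERC+ tumours. It had its highest value in mTERC- tumour 3 and a log2 difference of 0.84 ± 0.43 (SE; limma adjusted p = 0.942), which ran from 0.56 to 1.10 with each tumour left out and had a high-18S value of 0.30. Hrk, a BH3-only gene best known from neurons, had overlapping groups and a wide range, at 5.9, 132 and 73.1 in the mTERC- and 28.1, 144 and 35.6 in the mTERC+ tumours. Bid, the link from caspase 8 to the mitochondrion, had 349.8, 142 and 340.1 in the mTERC- and 442, 469 and 177 in the mTERC+ tumours, with groups that overlapped. Bnip3, a hypoxia-responsive protein of mitochondrial clearance, had 3329.9, 2879.9 and 1829.7 in the mTERC- and 3019, 1588 and 2808 in the mTERC+ tumours, and its highest over lowest tumour was 2.10-fold. Over the 11 tested BH3-only probe sets 4 had a higher and 7 a lower mean in mTERC- tumours, while Bmf, which senses detachment and cytoskeletal damage, was below the tested level, at 20.1, 33.8 and 56.0 in the mTERC- and 8.8, 19.4 and 22.9 in the mTERC+ tumours. Of the effectors, Bak1 had 57.7, 210.0 and 144 in the mTERC- and 87.2, 100.2 and 157 in the mTERC+ tumours and Bok 155, 407 and 489 in the mTERC- and 576, 474 and 307 in the mTERC+ tumours. Groups of both overlapped, and the log2 differences were 0.12 and -0.43. For Bok, leaving out mTERC- tumour 1 gave 0.02, mTERC+ tumour 1 -0.25, mTERC+ tumour 3 -0.67 and mTERC- tumour 3 -0.72, with a high-18S value of -1.33.

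The guardians of the mitochondrion gave small and mixed values, with 7 of 11 tested probe sets higher on average in mTERC- tumours and a median of 0.13. Mcl1, a short-lived BCL2 relative on which hepatocytes depend, was read by 6 probe sets with log2 differences of -0.09 to 0.39. The leading one had 626, 1477 and 748 in the mTERC- and 671, 664 and 944 in the mTERC+ tumours. Its highest value was that of mTERC- tumour 2, and the difference of 0.23 became -0.13 without it. The 1 Mcl1 probe set whose groups were apart had 252, 409 and 317 in the mTERC- and 231, 229.6 and 248 in the mTERC+ tumours, a step from 248 in the highest mTERC+ tumour to 252 in the lowest mTERC- tumour. Its difference of 0.39 was 0.23 without mTERC- tumour 2, with a high-18S value of 0.08. Bcl2l1, the gene of BCL-XL, had 269, 323 and 179 in the mTERC- and 213, 289.8 and 199.5 in the mTERC+ tumours on its leading probe set, with a difference of 0.10. Another Bcl2l1 probe set had groups apart, at 163, 247 and 163 in the mTERC- and 142, 140.4 and 72.5 in the mTERC+ tumours, with a difference of 0.59 ± 0.42 (SE; limma adjusted p = 0.942). Bcl2l2, the gene of BCL-W, had 38.4, 127 and 206 in the mTERC- and 114, 171 and 181 in the mTERC+ tumours, lowest in mTERC- tumour 1. Bcl2 itself was below the tested level, at 8.4, 17.1 and 105 in the mTERC- and 8.3, 60.1 and 22.2 in the mTERC+ tumours.

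Caspases were the steadiest of the role groups apart from the BCL2 guardians: the median SD over the 6 tumours was 0.41 for their 9 probe sets and 0.38 for the guardians' 11, beside 0.57 over all probe sets tested and 0.52 over the members, on the log2 scale. Casp2, an initiator caspase tied to DNA damage and ploidy control, had 136, 122 and 137 in mTERC- tumours 1, 2 and 3 and 156, 139 and 156 in mTERC+ tumours 1, 2 and 3. The whole range was 1.28-fold from lowest to highest, and its SD of 0.11 was at or above that of only 0.142% of probe sets tested. Within that narrow range each mTERC- tumour was below each mTERC+ tumour, with -0.16 on the log2 scale (SE 0.40) and an adjusted p of 0.987 in limma. That SE draws on the variance of other probe sets and is wider than Casp2's own spread. Casp8, the initiator at death receptors, had 537, 427 and 440.0 in the mTERC- and 490.4, 562 and 355 in the mTERC+ tumours, with a difference of 0.01 and an SD of 0.23. Casp6, an executioner, had 212, 199.5 and 263 in the mTERC- and 336, 242 and 309 in the mTERC+ tumours, with a difference of -0.35. Casp8 groups overlapped fully, and for Casp6 mTERC- tumour 3 was above mTERC+ tumour 2.

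Casp9, the caspase of the apoptosome, had probe sets that disagreed. Its leading probe set had 114, 319 and 112 in the mTERC- and 117, 195 and 203 in the mTERC+ tumours, a difference of -0.04. The other had 88.3, 125 and 111 in the mTERC- and 20.1, 29.4 and 91.9 in the mTERC+ tumours, a difference of 0.92 ± 0.53 (SE; limma adjusted p = 0.942) with mTERC+ tumour 3 among the mTERC- values and a range of 0.68 to 1.30 with each tumour left out. The inflammatory caspases did not separate the groups. Casp1, which cleaves interleukin 1 beta, had 112, 123 and 227 in the mTERC- and 68.8, 299 and 238 in the mTERC+ tumours. Casp4, which senses bacterial lipopolysaccharide in the cytosol, had 487, 291 and 534 in the mTERC- and 355, 651 and 577 in the mTERC+ tumours, and Casp12, a caspase linked to the endoplasmic reticulum, had 429, 364 and 586 in the mTERC- and 298, 718 and 447 in the mTERC+ tumours. For caspases 1, 4 and 12 the leading probe set was highest in mTERC+ tumour 2 in each case. The other Casp12 probe set was highest in mTERC- tumour 1, at 234, and had 155.9 in mTERC+ tumour 2. By summed signal, macrophage markers were also highest in mTERC+ tumour 2. So were interferon response (7519 against 3130 to 4031 in the others), T and NK cell, B cell, and stellate and fibroblast markers. The summed signal of 10 macrophage markers was 51925 in that tumour, 26582 and 10463 in mTERC+ tumours 1 and 3, and between 9455 and 16314 in the mTERC- group. Beyond the highest tumour the macrophage order did not hold. Second in macrophage markers, mTERC+ tumour 1 had the lowest Casp1 and leading Casp12 values. That tumour was also lowest in summed interferon response signal (3130) and in stellate and fibroblast signal (2647). Its T and NK cell and B cell sums were not the lowest. Whether macrophages, other cells or the interferon response carry these caspase values was not tested. In bulk tissue fewer cells of a type and less RNA per cell cannot be told apart.

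**Figure D2:**
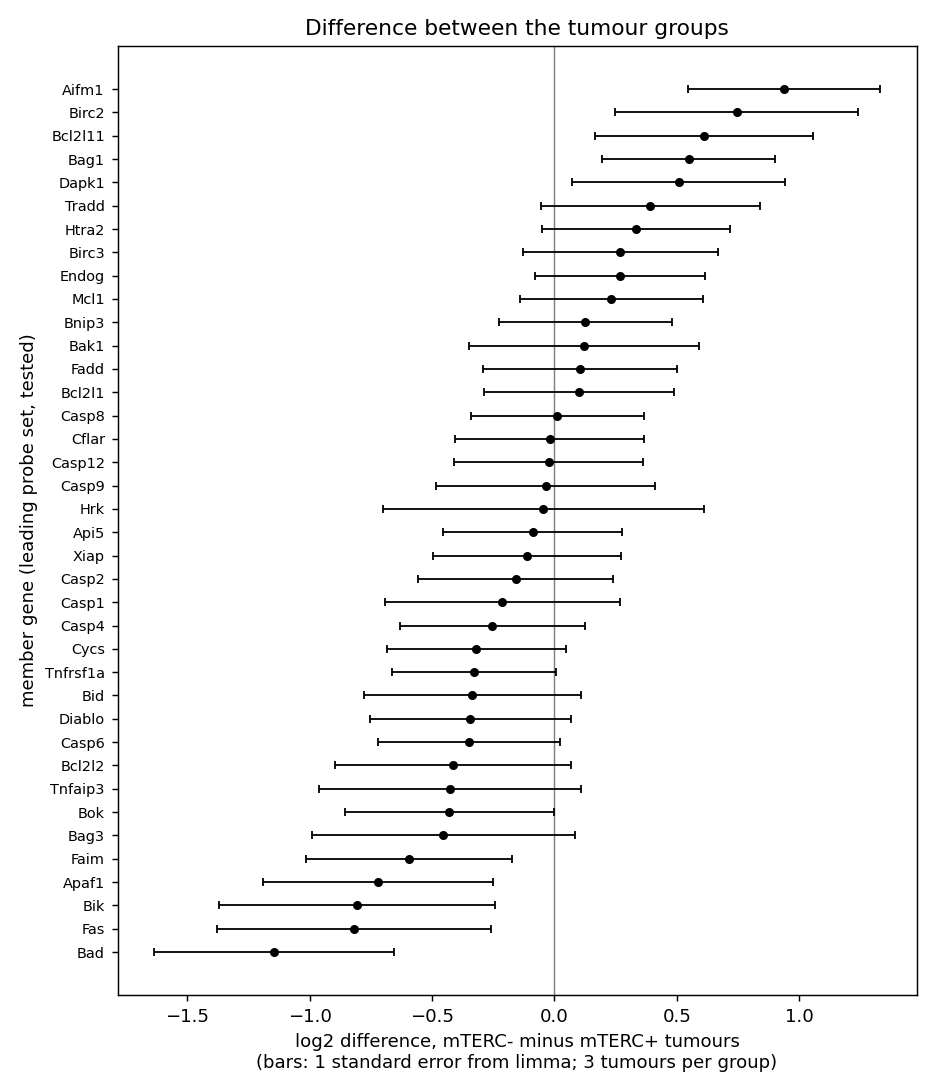
Log2 difference, mTERC- minus mTERC+ tumours, of the leading probe set of the 38 member genes tested (points), with 1 standard error from limma (bars, 3 tumours per group). The values run from -1.15 for Bad to 0.94 for Aifm1, and none passed after adjustment.

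At the cell surface, Fas, the receptor of Fas ligand through which hepatocytes are readily killed, varied more than most members. It had 265, 20.2 and 70.4 in mTERC- tumours 1, 2 and 3 and 190.3, 104 and 256 in mTERC+ tumours 1, 2 and 3. The highest and the lowest value both came from mTERC- tumours, a range of 13.1-fold, and the log2 difference of -0.82 was -0.24 without mTERC- tumour 2. Leaving out mTERC- tumour 1 gave -1.49, with a high-18S value of 0.53. Tnfrsf1a, the main TNF receptor, had 945, 1107 and 746 in the mTERC- and 1490.0, 1055 and 1004 in the mTERC+ tumours, a difference of -0.33 with overlap, and leaving out mTERC+ tumour 1 gave -0.15 and mTERC- tumour 3 -0.18. Tradd, the adaptor of that receptor, had 561, 249 and 199 in the mTERC- and 292, 305 and 124 in the mTERC+ tumours. Its highest value was in mTERC- tumour 1, and without that tumour the difference of 0.39 was -0.01. Leaving out mTERC+ tumour 3 gave 0.03, mTERC+ tumour 2 0.59 and mTERC- tumour 3 0.67, with a high-18S value of 1.21. Fadd, the adaptor that recruits caspase 8, had 136, 197 and 163 in the mTERC- and 131, 156 and 165 in the mTERC+ tumours and was, with an SD of 0.18, second to Casp2 in steadiness among leading probe sets. Dapk1, a calmodulin-regulated death kinase, had 152, 454 and 244 in the mTERC- and 179.9, 236 and 119 in the mTERC+ tumours, highest in mTERC- tumour 2. Its difference of 0.51 was 0.14 without that tumour, and leaving out mTERC+ tumour 3 gave 0.29 and mTERC- tumour 1 0.84, with a high-18S value of -0.15.

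Tnfrsf10b, the mouse receptor of TRAIL and a p53 target in cells that have p53, was below the tested level on average, and its groups were apart. Its leading probe set had 109, 97.6 and 67.8 in mTERC- tumours 1, 2 and 3 and 18.1, 7.9 and 13.1 in mTERC+ tumours 1, 2 and 3. The mTERC+ values were all under 20, and the lowest mTERC- value was 67.8. Fitted with no level filter, its log2 difference was 1.45 (SE 0.613), with an unadjusted p of 0.0235 and an adjusted p of 0.955 in limma. The other Tnfrsf10b probe set had 28.0, 70.9 and 7.6 in the mTERC- and 5.7, 6.5 and 73.5 in the mTERC+ tumours, which did not follow it. Fasl, the ligand of Fas, made by T and NK cells, was also below the tested level, at 143, 16.0 and 55.2 in the mTERC- and 22.3, 16.8 and 4.7 in the mTERC+ tumours. The summed signal of 8 T and NK cell markers was 518 to 860.1 in mTERC- and 265 to 1055 in mTERC+ tumours.

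Among the inhibitors, Birc2 and Birc3 encode the IAPs of TNF receptor complexes and lie next to each other in the genome. Birc2 had 237, 88.7 and 179 in the mTERC- and 105, 143 and 28.9 in the mTERC+ tumours. Its mTERC- values ran from 88.7 to 237, so the groups overlapped, with a log2 difference of 0.74 ± 0.50 (SE; limma adjusted p = 0.942). Leaving out mTERC+ tumour 3 gave 0.30, mTERC- tumour 1 0.49 and mTERC- tumour 2 1.07, with a high-18S value of 1.25. Birc3 had 300.4, 504 and 282 in the mTERC- and 251, 446 and 204 in the mTERC+ tumours on its leading probe set. A second Birc3 probe set had 12.8, 54.4 and 10.2 in the mTERC- and 75.7, 141 and 73.0 in the mTERC+ tumours, with all mTERC- values under all mTERC+ values and a difference of -1.19 ± 0.59 (SE; limma adjusted p = 0.942), against 0.27 for the leading one. Which transcripts each of them reads was not tested.

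Bag1, a co-chaperone that binds BCL2, had 973, 1409 and 1059 in the mTERC- and 1052, 510.2 and 827 in the mTERC+ tumours, with its lowest value in mTERC+ tumour 2 and a log2 difference of 0.55 (SE 0.36). That difference was 0.27 without mTERC+ tumour 2, with a high-18S value of 0.34. Bag3, a stress-induced co-chaperone, had 170.4, 20.2 and 233 in the mTERC- and 123, 204 and 164 in the mTERC+ tumours, so mTERC- tumour 2 alone was low, and the difference of -0.45 turned to 0.26 without it. Faim, an inhibitor of Fas killing, had 83.1, 86.3 and 167 in the mTERC- and 166, 156 and 218 in the mTERC+ tumours. Its mTERC- tumours 1 and 2 were low and mTERC- tumour 3 lay within the mTERC+ range, at a difference of -0.59. Cflar, the gene of cFLIP, had 453, 246 and 330.0 in the mTERC- and 352, 460.1 and 236 in the mTERC+ tumours on its leading probe set and log2 differences of -0.38 to 0.59 over 4 tested probe sets. Xiap, which binds caspases 3, 7 and 9 directly, had 241, 222 and 449.6 in the mTERC- and 269.7, 341 and 342 in the mTERC+ tumours and differences of -0.70 to 0.09 over 5 probe sets. Tnfaip3, a ubiquitin-editing brake on TNF signalling, had 17.7, 173 and 92.6 in the mTERC- and 92.7, 167 and 91.7 in the mTERC+ tumours, and Api5 564, 349 and 639 in the mTERC- and 492, 695 and 449 in the mTERC+ tumours. Of the 19 tested inhibitor probe sets 6 had a higher and 13 a lower mean in mTERC- tumours. Of the 18 member genes with several tested probe sets, 8 had probe sets with differences of both signs.

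By the SD over the 6 tumours, Bad (1.03), Fas (0.98), Bik (0.97) and Hrk (0.87) varied most among leading probe sets tested, and Casp2, Fadd and Casp8 least. Bad, Fas and Bik had their lowest value in mTERC- tumour 2. The SD over the members had a median of 0.52, a little under the 0.57 over all probe sets tested. The members' median departure from their own mean over the tumours was 0.16 in mTERC+ tumour 2 and between -0.04 and 0.07 in the others.

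Other genes of the pathway, a list of 64 of which 53 had a probe set on the tumour array, gave 84 tested probe sets. None of them passed in limma (0), and 3 had an unadjusted p below 0.05, or 3.57% against 4.84% of all, with 32 higher and 52 lower, or 61.9% against 47.8% of all, on average in mTERC- tumours. The groups did not overlap for 13 of the 84, or 15.5% against 10.1% of all, 4 with the mTERC- tumours above and 9 with them below. Cideb, a lipid droplet protein of hepatocytes named for its likeness to a DNA fragmentation factor, had 3064, 999 and 1761 in the mTERC- and 6041, 3811 and 4069.5 in the mTERC+ tumours. Its groups were apart by -1.36 on the log2 scale, at a limma adjusted p of 0.942. Bcl2l14, a BCL2 relative, had 100.1, 163 and 105 in the mTERC- and 6.0, 48.0 and 64 in the mTERC+ tumours, and Birc6, a giant IAP, 119, 109 and 186 in the mTERC- and 16.8, 99.6 and 51.6 in the mTERC+ tumours, both with the mTERC- tumours above. Other tested Birc6 probe sets lay the other way, at -1.06, -0.25 and -0.07 against 1.04. Birc6 probe sets below the tested level had the first direction, at 0.82, with the groups apart, and at 0.54. Nfkbia, the inhibitor of NF-kB, had 579, 725 and 298 in the mTERC- and 751, 809 and 1050.2 in the mTERC+ tumours, with the mTERC- tumours below. Another Nfkbia probe set had the mTERC- tumours above, at 237, 278 and 171 in the mTERC- and 162, 117 and 164 in the mTERC+ tumours, and the other 3 had log2 differences of -0.10. Pdcd6, a calcium-binding protein, had 933, 1084 and 848 in the mTERC- and 2034, 1709 and 1069.6 in the mTERC+ tumours, with overlap. Map3k5, the stress kinase ASK1, had 284, 433 and 254 in the mTERC- and 127, 120.3 and 133 in the mTERC+ tumours on one probe set and 90.3, 10.9 and 82.0 in the mTERC- and 147, 157 and 119 in the mTERC+ tumours on another, apart in opposite directions.

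The second comparison asked how the same genes stood in the infected p53-null livers, 48 hours after either virus. With 1 array per virus there is no replicate, no error and no test, and the values describe these pools. No member was 2-fold apart: 0 of 53 probe sets compared, from 34 genes, where 7.44% of 12402 probe sets were, 4.24% higher and 3.20% lower with TRF2DBDM. A probe set was compared if its signal was at or above the array median in at least 1 pool, and ratios are of the signal plus 32. Of the 53, 32 were lower in the TRF2DBDM pool, or 60.4%, against 49.1% of all, with a median log2 ratio of -0.12 beside 0.01 over all. Among probe sets with signal at or above percentile 75 the median was -0.16 for the members and -0.07 over all.

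**Figure D3:**
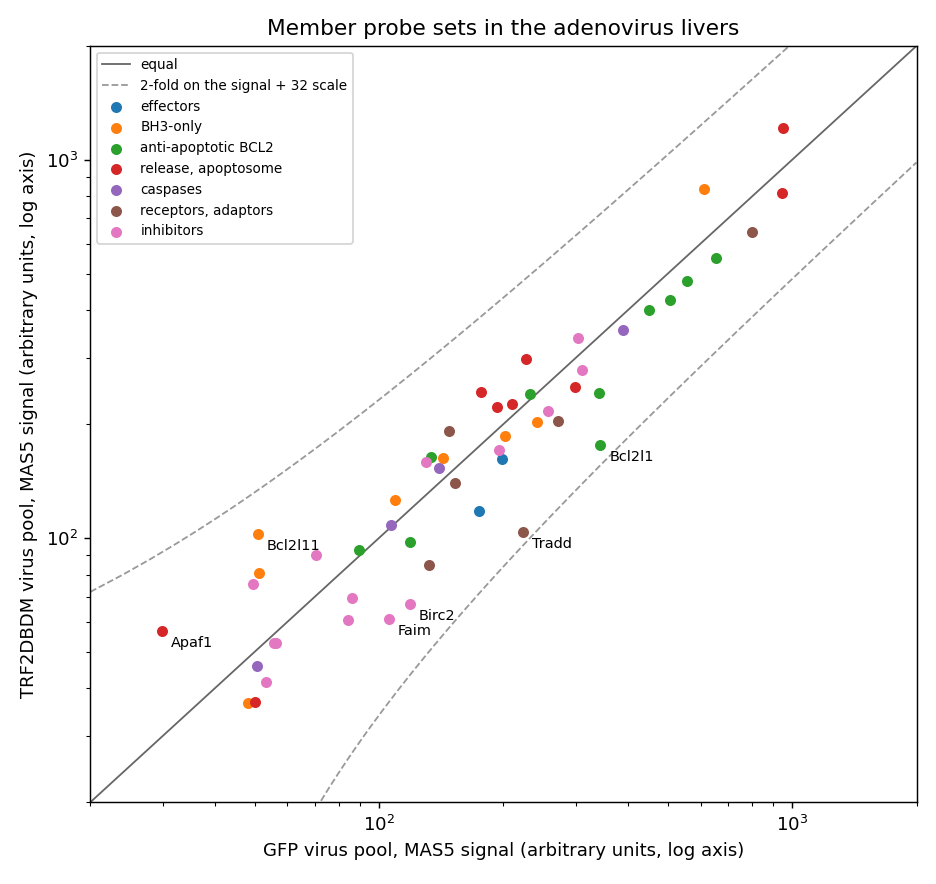
MAS5 signal of the 53 member probe sets compared, in the GFP virus pool (x axis) and the TRF2DBDM virus pool (y axis), both in arbitrary units on log axes and coloured by role. The solid line marks equal signal and the dashed lines a 2-fold ratio of the signal plus 32; all points lie between the dashed lines, with Tradd nearest to the lower one and names given where the log2 ratio is at least 0.5 in size.

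The lowest ratio of the members belonged to Tradd, the death receptor adaptor. It had a signal of 104 in the TRF2DBDM pool and 223 in the GFP pool on one probe set, a log2 ratio of -0.91, and of 84.7 in the TRF2DBDM pool and 132 in the GFP pool on the other, a log2 ratio of -0.49. Fadd had 203 in the TRF2DBDM pool and 272 in the GFP pool (-0.37) and Tnfrsf1a 644 in the TRF2DBDM pool and 800.0 in the GFP pool (-0.30). Of the 6 probe sets of receptors, adaptors and kinases 5 were lower with TRF2DBDM, the exception being the leading Dapk1 probe set at 0.32. Fas was under the array median in both pools, at 28.8 in the TRF2DBDM pool and 20.1 in the GFP pool. Interferon response markers were lower in the same pool, 9 of 11, with a summed signal of 2663 against 4704, and hepatocyte markers were higher, 8 of 8, with 67364 against 45451. Their part in these ratios was not tested.

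Among the mitochondrial genes values went both ways. Bcl2l11 had 103 in the TRF2DBDM pool and 50.9 in the GFP pool on one probe set, the highest ratio of the members at 0.70, and 163 in the TRF2DBDM pool and 143 in the GFP pool on its leading probe set (0.16). Apaf1 had 56.7 in the TRF2DBDM pool and 29.8 in the GFP pool (0.52), Hrk 80.9 in the TRF2DBDM pool and 51.2 in the GFP pool (0.44) and Bnip3 838 in the TRF2DBDM pool and 613 in the GFP pool (0.43). Both effectors were lower, Bak1 at 118 in the TRF2DBDM pool and 175 in the GFP pool (-0.47) and Bok at 162 in the TRF2DBDM pool and 199 in the GFP pool (-0.25). The guardians had 7 of 10 probe sets lower, led by a Bcl2l1 probe set at 176 in the TRF2DBDM pool and 344 in the GFP pool (-0.85), while the leading Bcl2l1 probe set was at 401 in the TRF2DBDM pool and 451 in the GFP pool (-0.16). Mcl1 ranged from -0.45 to 0.25 over its 6 probe sets. Aifm1, the member with the smallest p in the tumours, was 222 in the TRF2DBDM pool and 194 in the GFP pool (0.17), and Bad was 186 in the TRF2DBDM pool and 202 in the GFP pool (-0.10).

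The caspases compared were close to equal in the pools. Casp2 had 153 in the TRF2DBDM pool and 139.7 in the GFP pool, Casp6 109 in the TRF2DBDM pool and 107 in the GFP pool, Casp8 355 in the TRF2DBDM pool and 389 in the GFP pool and Casp9 45.9 in the TRF2DBDM pool and 50.7 in the GFP pool, with log2 ratios of -0.12 to 0.11. Casp1, Casp4 and Casp12 were under the array median in both pools. Of the inhibitors, Birc2 had 66.8 in the TRF2DBDM pool and 119 in the GFP pool (-0.61) and Faim 61.2 in the TRF2DBDM pool and 106 in the GFP pool (-0.56), and 10 of the 14 inhibitor probe sets were lower with TRF2DBDM. Xiap was higher on both probe sets compared, at 0.24 and 0.25, and Tnfaip3 was level, at 52.7 in the TRF2DBDM pool and 56.2 in the GFP pool. In the list of other pathway genes 3 of 62 probe sets reached 2-fold, where 7.44% of all 12402 probe sets compared did. Of the 3, 1 was higher and 2 were lower with TRF2DBDM. These were Ikbkb at 64.9 against 11.8, Ikbkg at 42.8 against 162 and Bcl2l14 at 40.1 against 144, each under the array median in 1 of the pools. Other compared probe sets of these genes did not reach 2-fold, with log2 ratios of -0.56 and -0.53 for Ikbkb, opposite to the first, of -0.51, -0.28 and 0.06 for Ikbkg and of -0.19 for Bcl2l14. Tnfrsf12a, the receptor of TWEAK, was 996 against 1974 and 1209 against 2350.4 on its probe sets, Acin1 132 against 267 and 164 against 249.7, and Pdcd4 96.1 against 40.5.

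The members' levels were then set side by side between the tumours and the infected livers. The arrays were of different kinds and scaled separately, so signals were turned into percentiles among the 22626 probe sets that both arrays hold, and each probe set was compared only with itself. Every tumour was above both livers for 11 of the 86 member probe sets, or 12.8%, against 11.8% of all shared probe sets, and below both for 14, or 16.3%, against 13.0%. These shares are near the background. By role, 4 of the 9 caspase probe sets were above and 2 below. Of the 15 of the anti-apoptotic BCL2 family, 1 was above and 5 were below. Tumour, HBs transgene, virus, age, pooling and array type cannot be told apart here, and no test was made.

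The widest gaps belonged to the inflammatory caspases Casp12 and Casp4. Casp12 was at percentile 76.7 to 88.2 in the tumours and at 16.7 and 40.4 in the TRF2DBDM and GFP pools, with signals of 298 to 718 in the tumours and of 8.8 in the TRF2DBDM pool and 30.6 in the GFP pool. Its second probe set showed the same order, at 51.4 to 72.4 against 21.7 and 37.1. Casp4 was at 76.4 to 87.2 against 25.1 and 40.9, with signals of 291 to 651 in the tumours and of 16.8 in the TRF2DBDM pool and 31.1 in the GFP pool. Casp1 did not share this: it was at 40.4 to 76.4 in the tumours and 44.9 and 16.1 in the livers. Macrophage markers also stood higher in the tumours, at a median percentile of 86.4 to 98.4 against 79.0 and 71.8. Stellate and fibroblast markers did too, at 66.5 to 78.8 against 58.4 and 47.4. Interferon response markers overlapped, at 68.0 to 88.4 against 71.0 and 90.6. The part of any of these in the caspase levels was not tested. Of the macrophage list, Clec4f, a Kupffer cell marker, was near zero in the TRF2DBDM and GFP pools, at 5.5 and 6.4. Marco was low too, at 11.7 and 7.0. The rest of that list was not, with liver signals from 50.7 (Adgre1) to 799 (Cd68), both in the GFP pool.

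Casp1, Casp4 and Casp12 follow each other on mouse chromosome 9, so their upstream sequences are shown to set beside these levels. The 250 bases before the first start listed by RefSeq for each gene on build GRCm38.p6, plus strand, lie at chr9:5298267-5298516 for Casp1, chr9:5308599-5308848 for Casp4 and chr9:5345226-5345475 for Casp12. Capitals mark matches, on either strand, to 4 motifs searched: TTCNNNGAA, the interferon gamma activated site bound by STAT proteins; GAAA, 2 bases of any kind and GAAA, a core of the interferon-stimulated response element; GGGA, 4 bases of any kind and CC, a core of NF-kB sites; and TATAAA, the TATA box.
Casp1: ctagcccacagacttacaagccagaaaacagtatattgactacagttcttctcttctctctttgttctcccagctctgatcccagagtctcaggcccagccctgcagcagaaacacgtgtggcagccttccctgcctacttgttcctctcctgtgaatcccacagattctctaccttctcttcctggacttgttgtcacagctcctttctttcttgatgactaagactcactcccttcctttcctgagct
Casp4: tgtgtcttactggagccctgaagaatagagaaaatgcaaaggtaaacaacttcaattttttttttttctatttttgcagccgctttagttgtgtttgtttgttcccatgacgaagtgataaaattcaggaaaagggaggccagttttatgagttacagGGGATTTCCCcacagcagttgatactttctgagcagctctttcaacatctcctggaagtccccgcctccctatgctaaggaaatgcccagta
Casp12: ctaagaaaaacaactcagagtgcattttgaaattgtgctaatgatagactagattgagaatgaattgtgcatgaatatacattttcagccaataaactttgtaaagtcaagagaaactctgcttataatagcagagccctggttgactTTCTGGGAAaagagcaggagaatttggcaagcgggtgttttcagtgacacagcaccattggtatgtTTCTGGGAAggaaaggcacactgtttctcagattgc
Casp4 had an NF-kB core, GGGATTTCCC, whose first base lies at -92 from the start, and Casp12 had a repeated TTCTGGGAA at -102 and -36. No overlap occurred among the marked matches, and Casp1 had none of these letters in its window. Over the first listed windows of 27025 genes, 7.18% held TTCNNNGAA, 17.3% the NF-kB core, 13.0% TATAAA and 3.04% the interferon-stimulated core. Of the 38 member genes with a listed window, 3 held the first (Casp12, Fas and Tnfrsf1a), 8 the second (Aifm1, Bak1, Bcl2l2, Birc3, Bok, Casp4, Tnfaip3 and Xiap), 2 the third (Cflar and Tnfaip3) and 0 the last. A match describes letters in this window and is not a site shown to be bound.

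**Figure D4:**
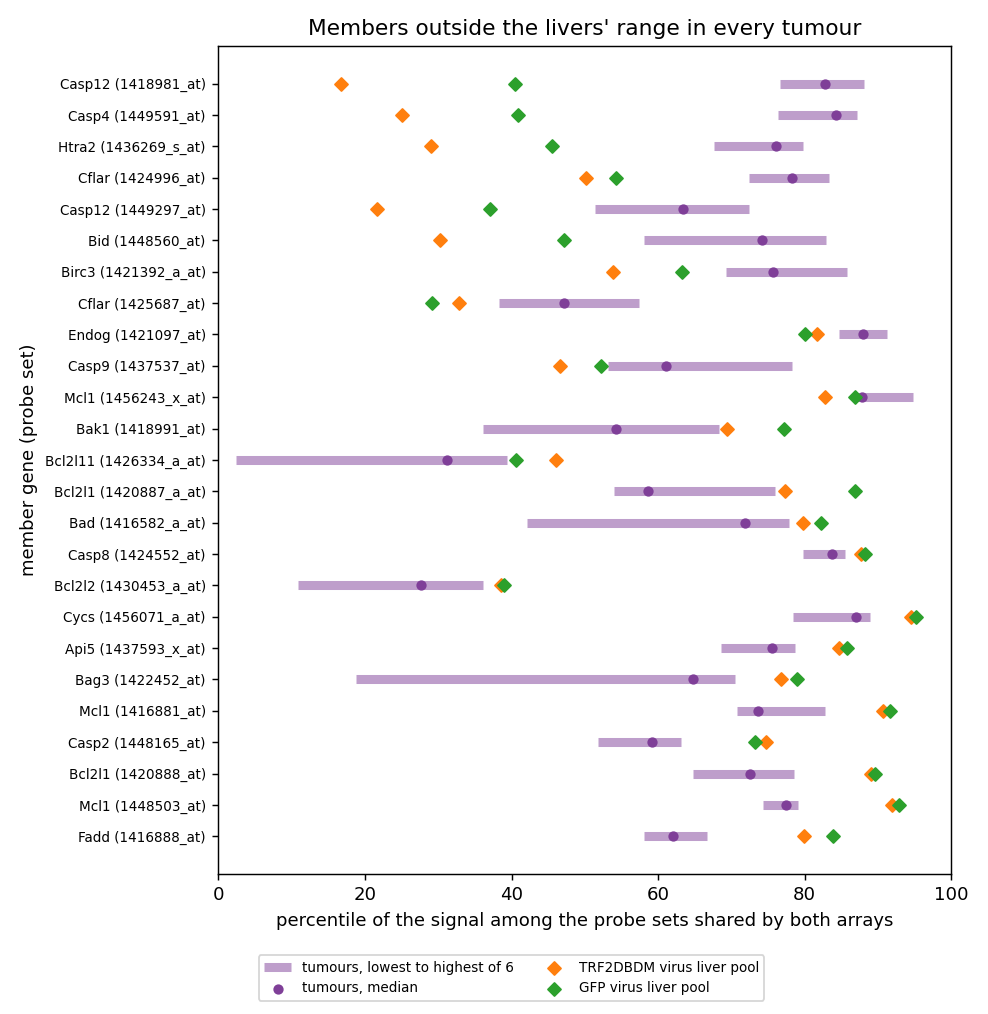
Percentile of the signal among the probe sets shared by both arrays (x axis) for the 25 member probe sets whose tumours all lay outside the livers' values. Bars span the lowest to the highest of 6 tumours with the median as a point, and diamonds are the TRF2DBDM and GFP pools; Casp12 and Casp4 at the top have the widest gaps above the livers and Fadd at the bottom the widest below.

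Others above the livers were Htra2, a mitochondrial protease that antagonises IAPs, at 67.6 to 79.7 against 29.1 and 45.6, and Cflar on its leading probe set, at 72.4 to 83.3 against 50.2 and 54.3. The other Htra2 probe set overlapped, at 41.4 to 59.7 against 40.9 and 52.0. Of the other Cflar probe sets, 1 was above and 2 overlapped, at 56.5 to 80.6 against 57.2 and 63.6 and at 18.5 to 74.0 against 59.3 and 51.6. Birc3 was above on its leading probe set and overlapped on the other (the leading one at 69.2 to 85.8 against 53.9 and 63.2). Bid was above on one probe set (58.0 to 83.0 against 30.2 and 47.1) and overlapped on the leading one. Below the livers lay Fadd, at 58.1 to 66.7 against 79.9 and 83.9, and Casp2, at 51.7 to 63.2 against 74.7 and 73.2. As deposited, the Casp2 signals of the tumours overlapped those of the livers. Bcl2l1 was below on its leading probe set, at 64.7 to 78.5 against 89.0 and 89.6, and on 1 other, while 2 others overlapped. Mcl1 was below on a pair of probe sets, above on its leading one by a margin of 0.05 points and overlapping on the other 3, so no direction can be given for it. With a margin of at least 10 points, 6 probe sets were above (Casp12 on both, Casp4, Htra2, Cflar and Bid) and 4 below (Fadd, Mcl1, Bcl2l1 and Casp2), against 3.08% and 2.79% of all shared probe sets.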

How the data were processed

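RNA of 6 tumours and 2 liver pools was labelled from 6 microg of total RNA per array and read on Affymetrix arrays of 2 kinds, as the labels have it. Deposited were MAS5 signal intensity values per probe set on a linear scale, which the authors made, per the submitters' processing notes. No MAS5 version or detection calls were used here. The mean of each array without its lowest and highest 2% was 150, and arrays were used as scaled. After removal of 64 control probe sets, 45037 and 22626 remained. Symbols came from the platform annotation (34958 tumour-array probe sets with 1 symbol, 932 with several, 9211 with none; 20393, 691 and 1606 on the other array), and all 42 member genes matched RefSeq by identifier. Another 17 member probe sets on the tumour array alone were not used.

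Levels were log2 of the signal plus 32. Tumour probe sets with a mean at or above the median entered a limma fit (version 3.58.1, R version 4.3.3; variance trend on; two-sided), with Benjamini-Hochberg adjustment over all 22519. The fit was on probe sets, since the members were chosen as probe sets. The code was tested on simulated data. All members could be named; values in every tumour were due for the 14 genes with the smallest p and the 4 most variable, and other members, probe sets and pathway genes (up to 6 per comparison) followed a written rule. The members, lists and rules were chosen with earlier results of these data known. Replicate numbers follow deposit order. Precision is limited by the number of arrays. Alternatives were other normalization, pseudocounts, filters, 1 probe set per gene, no variance trend, array weights, an 18S block and each tumour left out. The percentile comparison and its alternatives were added after seeing the data.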

Additional observations from a re-analysis of the deposited data

How the results depend on the processing

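No member passed in limma under any of the 16 alternatives run for the tumours, and the smallest adjusted p of a member was 0.523, without mTERC- tumour 1. The count of all probe sets called was 1, and it was 0 with a pseudocount of 1, 0 with a filter at percentile 75, 0 with no variance trend, 3 with array weights, 9 with no level filter and 0 to 6 with each tumour left out. The members' median of -0.04 ran from -0.10 to 0.06 with each tumour left out. Of 221 values of the 14 named genes under alternatives 217 kept their direction and stayed short of the threshold. The 4 that changed sign were Fas (0.53) and Dapk1 (-0.15) with the block for the 18S control, which leaves mTERC- tumour 1 as the only one set against the mTERC+ group, and Bok (0.02) and Tradd (-0.01) without mTERC- tumour 1; the cause was not tested. Others kept their sign and moved far with that block, among them Bad (-1.15 to -0.17), Apaf1 (-0.72 to -0.07), Tradd (0.39 to 1.21), Bok (-0.43 to -1.33) and Bcl2l11 (0.61 to 0.26). With each tumour left out Bok ran from -0.72 to 0.02 and Tradd from -0.01 to 0.67. In the adenovirus pair, median centring moved the median of all probe sets from 0.01 to -0.10 and that of the members from -0.12 to -0.23, and brought 1 member, Tradd, to 2-fold. A pseudocount of 1 also brought 1 to 2-fold, again Tradd. In place of percentiles, signals as deposited gave 26 member probe sets above and 5 below the livers (32.6% and 2.35% of all), since the arrays' scales differ, and a margin of 10 points gave 6 and 4. Percentiles without mTERC- tumour 2 gave 16 above and 19 below (14.4% and 15.5% of all). The block on Y-linked expression was not run, because Ddx3y had no probe set annotated to a single symbol. No paired analysis was possible because the replicate numbers only follow deposit order. Precision is set by 3 tumours per group and 1 array per virus.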
